A study of Homo sapiens with 3 samples.

Results

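Peroxiredoxins, thioredoxins and thioredoxin reductases were examined in MDA-MB-231 cells, a mesenchymal triple-negative human breast cancer line, in which the long non-coding RNA TMPO-AS1 had been targeted by siRNA. The family was taken as 10 named genes, PRDX1 to PRDX6, TXN, TXN2, TXNRD1 and TXNRD2. A gene was represented by its brightest probe set among those annotated with that 1 symbol and no other. By this rule 9 of the 10 genes had a value, out of 33616 genes in all. PRDX5 had no such probe set and is not analysed here. All 9 passed the filter on dim genes, which kept the 16808 genes whose mean signal was at or above the median gene (log2 signal 4.42). The genes were chosen with their log2 ratios in these arrays known, so those ratios are given as a description and no test is attached to them.

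The series held 3 arrays, 1 of cells given control siRNA (siControl), 1 of cells given siTMPO-AS1 #1 and 1 of cells given siTMPO-AS1 #2, all collected 48 hours after transfection. The arrays shared the cell line. No siRNA had a second array, and the labels do not say whether the arrays came from separate cultures. A log2 signal is the authors' normalised brightness of a probe set on one array, and a log2 ratio is the difference between an siRNA array and the control array on that scale, so both ratios share their reference. Signals of different probe sets are not on a common scale, and levels are compared only within a gene. A gene was called when it stood at least 1.5-fold from control, a log2 ratio of 0.58 or more, in the same direction with both siRNAs.

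Peroxiredoxins are abundant enzymes that reduce hydrogen peroxide with a reactive cysteine. In the typical 2-Cys members the oxidised cysteine forms a disulfide with a partner subunit, which thioredoxin then reduces, and thioredoxin reductase, a selenoprotein, restores thioredoxin with electrons from NADPH. The cytosol (PRDX1, PRDX2, TXN, TXNRD1) and the mitochondrial matrix (PRDX3, TXN2, TXNRD2) each hold their own set, and PRDX4 works in the endoplasmic reticulum.

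The targeted RNA, TMPO-AS1, had log2 signals of 4.83 in siControl, 4.37 with siTMPO-AS1 #1 and 4.28 with siTMPO-AS1 #2, ratios of -0.46 and -0.55. Both siRNA signals were lower than control but lay under the brightness filter, which TMPO-AS1 passed only through its control signal. Neither ratio reached 1.5-fold, so these values do not show how far the RNA was reduced. The cell line markers VIM, CD44, AXL, CAV1, EGFR and KRT18 had signals between 10.86 and 16.52. Of the 6 markers named as low for the line, ESR1, PGR, CDH1 and CLDN3 lay under the filter, while ERBB3 lay between 5.22 and 6.69 and the tight junction gene CLDN4, against its place on that list, between 10.17 and 10.93. Leukocyte markers lay between 3.63 and 4.64, endothelial markers between 3.13 and 4.75 and fibroblast markers between 3.96 and 6.66. The median gene tested had a ratio of 0.025 for siTMPO-AS1 #1 and of 0.093 for #2. The siRNA arrays differed from each other by a median of 0.43 log2 units, and 37.6% of genes differed between them by 1.5-fold or more. That difference is the only gauge of spread in the series, and it also holds whatever separates the 2 siRNAs.

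The upstream sequences of 3 genes are shown because these genes went different ways, PRDX3 far below control, TXNRD1 above it and PRDX4 within 1.5-fold of it. TXNRD1 was not called. The RefSeq promoter table (GRCh38.p14) held 11 windows for 7 of the 10 genes, and the 250 bases before the start of transcription are printed 5′ to 3′ on the strand of the gene. PRDX1 and TXN2, the 2 genes called higher, had no window and could not be searched. PRDX3 is at chr10:119178813-119179062 on the minus strand, PRDX4 at chrX:23667243-23667492 on the plus strand and TXNRD1 (the upstream one of 2 windows) at chr12:104215529-104215778 on the plus strand. Capitals mark the E-box CACGTG in PRDX3 and PRDX4, a sequence bound by factors of the MYC and USF families, and in TXNRD1 the letters TGACNNNGC, the core of the antioxidant response element bound by NRF2.
PRDX3: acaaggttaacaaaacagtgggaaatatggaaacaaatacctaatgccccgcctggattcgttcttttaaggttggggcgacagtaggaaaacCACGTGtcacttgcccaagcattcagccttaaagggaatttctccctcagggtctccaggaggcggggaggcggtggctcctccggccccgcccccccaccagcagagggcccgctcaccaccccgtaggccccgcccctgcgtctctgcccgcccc
PRDX4: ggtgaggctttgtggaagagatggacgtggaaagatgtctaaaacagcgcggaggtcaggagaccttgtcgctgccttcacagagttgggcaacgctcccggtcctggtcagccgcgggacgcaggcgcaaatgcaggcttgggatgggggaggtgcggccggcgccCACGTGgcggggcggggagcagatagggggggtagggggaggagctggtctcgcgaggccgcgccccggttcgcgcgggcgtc
TXNRD1: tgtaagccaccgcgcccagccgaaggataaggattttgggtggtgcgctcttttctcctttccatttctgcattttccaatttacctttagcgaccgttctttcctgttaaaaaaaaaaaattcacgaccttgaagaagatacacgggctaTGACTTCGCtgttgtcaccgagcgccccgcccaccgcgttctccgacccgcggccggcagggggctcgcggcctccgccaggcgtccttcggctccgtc

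Both strands were searched, in the same 250 bases, for CACGTG, TGACNNNGC and the GC box GGGCGG, and no match overlapped a match of another motif in these genes. The E-box was found in 2 of the 11 windows, 157 bases before the start of PRDX3 and 83 before that of PRDX4, and in 6.34% of all 35116 windows. The antioxidant response element core was found in 2 of the 11, both of TXNRD1, and in 10.9% of all windows. The GC box was found in 9 of the 11 and in 42.6% of all windows; the other two are windows of TXNRD2. The E-box is thus held by a gene called lower and by one within 1.5-fold of control on both arrays. These matches describe letters, and nothing was measured at these sequences.

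Of the peroxiredoxins, PRDX3, the mitochondrial member, stood far below control. Its log2 signal was 14.85 in siControl, 12.77 with siTMPO-AS1 #1 and 12.90 with siTMPO-AS1 #2. Both siRNA arrays were low and close together. The log2 ratios were -2.08 and -1.95, 4.23-fold and 3.86-fold below control, and the siRNA arrays differed by 0.13, less than the 0.43 of the median gene. Over all genes tested, 12 of 16808, PRDX3 among them, had both ratios at or below -1.95. Across the 9 genes PRDX3 was the 1 called lower, where 4.07% of all genes tested were (4.58% of the brighter genes, those at or above the 75th percentile of brightness, to which all 9 belong). The genes were chosen on this contrast, so nothing is read from that count.

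PRDX1, the main cytosolic and nuclear peroxiredoxin, stood above control on both siRNA arrays. Its log2 signal was 14.38 in siControl, 15.08 with siTMPO-AS1 #1 and 15.32 with siTMPO-AS1 #2, giving log2 ratios of 0.69 and 0.94 (1.62-fold and 1.92-fold). The control array was the lowest of the 3, and the siRNA arrays differed by 0.25. PRDX2, the cytosolic member abundant in red cells, had signals of 13.50, 13.25 and 12.73 in the same order. Its ratios were -0.25 and -0.77, past 1.5-fold with siTMPO-AS1 #2 only, and the 0.52 between the siRNA arrays was more than between those of the median gene. The paired cytosolic enzymes PRDX1 and PRDX2 therefore lay on opposite sides of the control array.

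PRDX4, the secretory pathway peroxiredoxin that passes oxidising equivalents to protein disulfide isomerases, had signals of 12.65 in siControl, 12.57 with siTMPO-AS1 #1 and 13.04 with siTMPO-AS1 #2. Its ratios were -0.08 and 0.39. PRDX6, the 1-Cys member, which uses glutathione in place of thioredoxin and also has phospholipase activity, had signals of 15.33, 15.01 and 15.43, with ratios of -0.32 and 0.10. For both genes the control array lay between the siRNA arrays, which differed by 0.46 and 0.42, about as much as for the median gene.

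**Figure D1:**
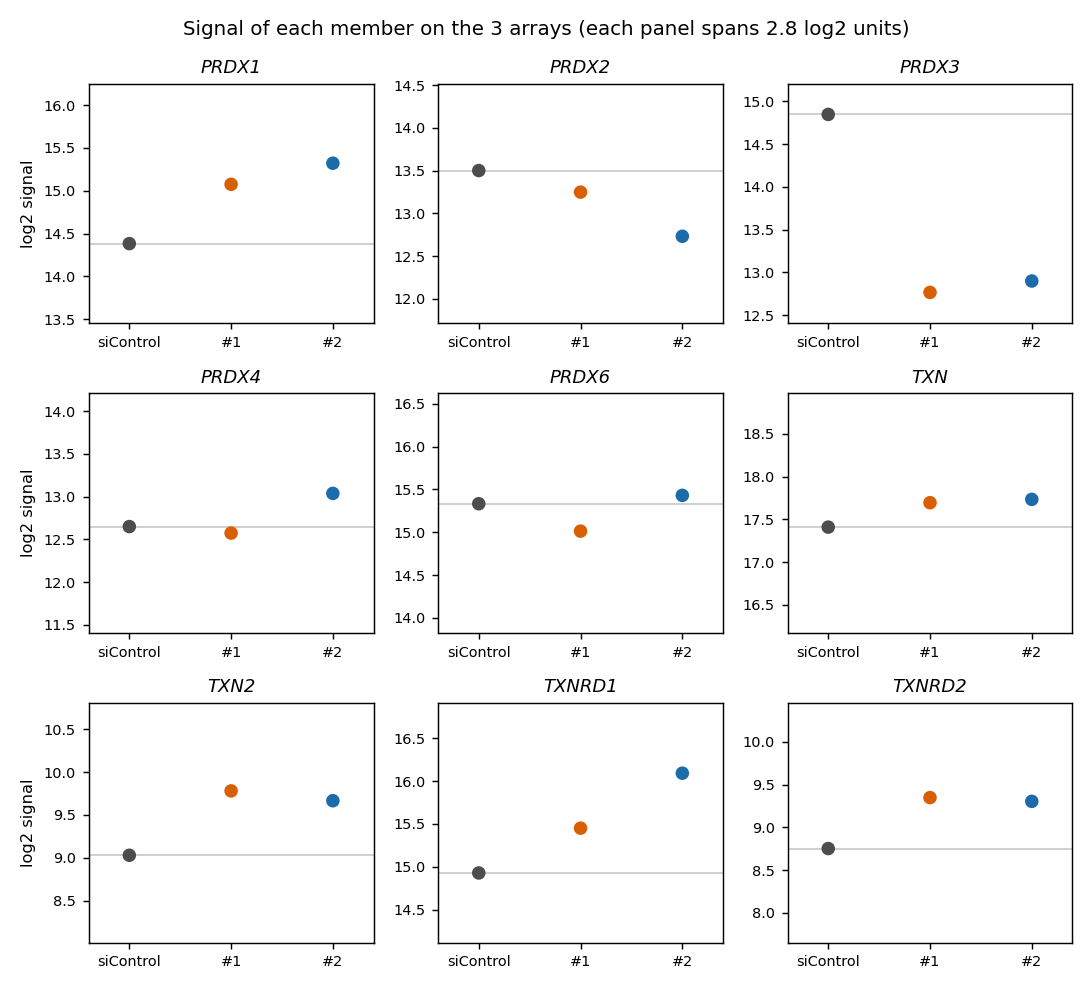
Log2 signal (y axis) of the 9 measured genes on the siControl, siTMPO-AS1 #1 and #2 arrays (x axis), 1 point per array, with a grey line at the control value and the same span in every panel. PRDX3 drops from 14.85 to 12.77 and 12.90, while PRDX1, TXN2, TXNRD1 and TXNRD2 lie above their control value on both siRNA arrays.

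TXN, the cytosolic thioredoxin, moved little. Its log2 signal was 17.41 in siControl, 17.70 with siTMPO-AS1 #1 and 17.73 with siTMPO-AS1 #2, ratios of 0.29 and 0.32, and the siRNA arrays differed by 0.039. All 3 values exceed 16, the log2 of the brightest value that a 16-bit scan records, so the scale at this brightness is uncertain and a compressed difference was not tested for. TXN2, the mitochondrial thioredoxin that reduces PRDX3, had signals of 9.03, 9.78 and 9.67. Control was the lowest array, and the ratios were 0.75 and 0.64 (1.68-fold and 1.56-fold). TXN2 fell short of 1.5-fold with siTMPO-AS1 #2 after cyclic loess normalization (0.563) and after centring the arrays (0.581).

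TXNRD1, the cytosolic thioredoxin reductase and a known NRF2 target, had a log2 signal of 14.93 in siControl, 15.45 with siTMPO-AS1 #1 and 16.09 with siTMPO-AS1 #2. Both siRNA arrays were above control, with ratios of 0.52 (1.44-fold) and 1.17 (2.24-fold). The signal on the #2 array also exceeds 16, so the second ratio carries the same uncertainty of scale as TXN. Among the 9 genes TXNRD1 had the largest difference between the siRNA arrays, 0.64, and its ratio with siTMPO-AS1 #1 lay under the 1.5-fold mark. It passed that mark when the arrays were centred (0.60). TXNRD2, the mitochondrial reductase, had signals of 8.75, 9.35 and 9.30, ratios of 0.60 and 0.55, just over and just under 1.5-fold. A second, dim probe set of TXNRD2 had signals of 4.27, 4.12 and 5.13, ratios of -0.15 and 0.86, so the 2 probe sets disagree with siTMPO-AS1 #1. The other 8 genes had 1 probe set each.

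Called higher with both siRNAs were thus 2 of 9 genes, PRDX1 and TXN2, where 5.42% of all genes tested were (5.89% of the brighter genes). Just outside the call lay TXNRD2, with 0.55 as its smaller ratio, and TXNRD1 with 0.52. Just inside lay TXN2 with 0.64 and PRDX1 with 0.69. In opposite directions 0 of 9 were past 1.5-fold, beside 3.3% of all genes. By array, 4 of 9 genes were past 1.5-fold with siTMPO-AS1 #1 against 35.4% of all genes, and 5 of 9 with siTMPO-AS1 #2 against 26.5%. The median ratio of the 9 genes was 0.29 and 0.39, beside 0.025 and 0.093 for all genes tested. The 9 genes were chosen with these ratios known, so nothing is read from these counts and medians. Within the mitochondrial set PRDX3 lay below control on both arrays while TXN2, and TXNRD2 by its brighter probe set, lay above it. The dim TXNRD2 probe set lay below control with siTMPO-AS1 #1 (-0.15). limma, fitted over all genes to both siTMPO-AS1 arrays against control, called 0 of 16808 genes (0%) at an adjusted p of 0.05, and 261 had an unadjusted p under 0.05. That fit has 1 residual degree of freedom, so its count of 0 does not show that genes were unchanged.

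**Figure D2:**
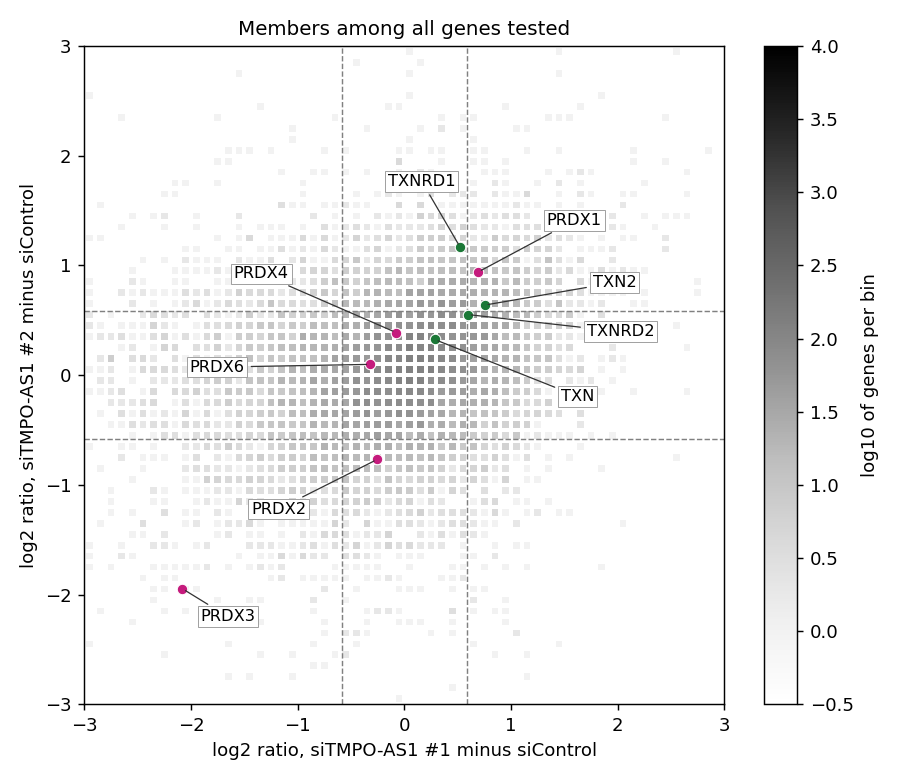
Log2 ratio with siTMPO-AS1 #2 (y axis) against that with siTMPO-AS1 #1 (x axis). Grey squares are bins of the 16808 genes tested, 147 of which lie outside the plotted range, coloured points are peroxiredoxins (pink) and thioredoxins and reductases (green), and dashed lines mark 1.5-fold; PRDX3 sits far to the lower left, and PRDX1 and TXN2 lie beyond both upper lines.

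Processed pseudogenes of these genes were read beside their parents, because copies of a transcript can share probes. The annotation named 17 pseudogenes of PRDX1, PRDX2, PRDX3, PRDX4 and TXN, of which 7 passed the brightness filter. PRDX3P1 had log2 signals of 6.62 in siControl, 4.63 with siTMPO-AS1 #1 and 5.51 with siTMPO-AS1 #2, ratios of -1.99 and -1.12. PRDX3P2 had 8.25, 6.98 and 6.52, ratios of -1.27 and -1.72. Both PRDX3 pseudogenes that passed the filter were thus called lower, 2 of the 7 pseudogenes tested, where 4.07% of all genes tested were. The dim PRDX3P3 (ratios -0.28 and 0.78) and PRDX3P4 (-0.54 and -1.04) were not. Because probes can be shared with the parent, these calls are not read as observations separate from PRDX3.

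TXNP1 had log2 signals of 12.54 in siControl, 13.33 with siTMPO-AS1 #1 and 13.41 with siTMPO-AS1 #2. Its ratios, 0.79 and 0.88, were called higher. Its parent TXN had 0.29 and 0.32, from signals beyond the scan limit, so the sizes are not compared. None of the other 6 TXN pseudogenes, and none of the 4 of PRDX2, the 1 of PRDX1 and the 1 of PRDX4, was called. How much parent RNA these probe sets capture was not tested.

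**Figure D3:**
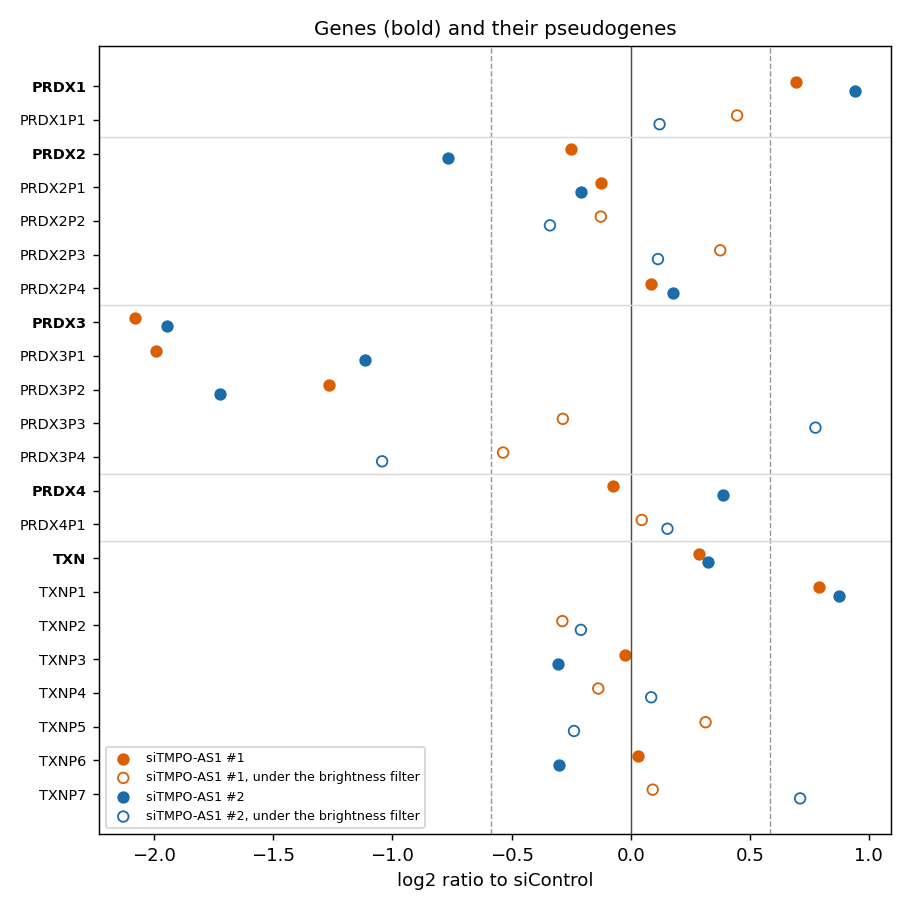
Log2 ratio to siControl (x axis) of 5 parent genes (bold) and their 17 pseudogenes (y axis), with siTMPO-AS1 #1 in orange and #2 in blue; open symbols lie under the brightness filter and dashed lines mark 1.5-fold. PRDX3P1 and PRDX3P2 lie left of the line with PRDX3, and TXNP1 lies right of the other line; TXN, whose signals exceed the scan limit, lies between the lines.

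By gene order on the RefSeq assembly, PRDX3 lies between SFXN4 and GRK5. SFXN4, a mitochondrial sideroflexin, had ratios of -0.12 and -0.25, and DENND10, the next gene on that side, had -0.01 and 0.24. GRK5, a kinase of G protein-coupled receptors, was dim and had 1.02 and -1.31. GRK5-IT1, a non-coding gene within the GRK5 locus and the next in that order, was dim but called lower, with -1.73 and -1.06. The genes nearest to PRDX3 in the pair of ratios, among those tested, were KLHL42 (-2.16 and -1.89, Euclidean distance 0.098), LOC100128885 (-1.97 and -1.98, distance 0.12) and MINDY2 (-2.02 and -2.11, distance 0.17), a likeness that rests on 2 ratios from 3 arrays. LOC100128885 had signals of 5.85 in siControl, 3.88 with siTMPO-AS1 #1 and 3.87 with #2. It passed the brightness filter only through the control array, so its likeness is not read further.

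The wider thiol redox system was described through 8 lists with 94 genes, of which 86 were tested. Together 6 were called lower (6.98%) and 2 higher (2.33%), beside 4.07% and 5.42% of all genes tested. Of the 2, HMOX1 passed the brightness filter only through the siRNA arrays and is not read further. Their median ratio was -0.11 for siTMPO-AS1 #1 and 0.10 for #2. Taken by array, siTMPO-AS1 #1 had 28 of them lower by 1.5-fold (18.8% of all genes tested were) and 8 higher (16.6%). Its counterpart #2 had 6 lower (10.4% of all genes) and 13 higher (16.1%).

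The list of thioredoxin and peroxiredoxin partners held 18 tested genes, of which 1 was called lower and 0 higher (medians -0.06 and 0.06). SESN3, one of the sestrins, stress proteins that restrain mTORC1, had log2 signals of 6.68 in siControl, 5.08 with siTMPO-AS1 #1 and 5.47 with siTMPO-AS1 #2, ratios of -1.60 and -1.21. APEX1, a DNA repair and redox protein that thioredoxin acts on, came nearest to the call among the others, with -0.38 and -0.30. SRXN1, the sulfiredoxin that rescues overoxidised peroxiredoxins, was dim, with ratios of -0.01 and 0.07. TXNIP, the thioredoxin inhibitor, had 0.57 and 0.06. TXNRD3 had -0.49 and 0.18, but was dim, with a signal under the brightness filter on the siTMPO-AS1 #1 array (4.34). SESN1, another sestrin, had 0.26 and 1.03, and the methionine sulfoxide reductases MSRA (-1.43 and 0.33) and MSRB3 (-0.54 and 1.53) lay on opposite sides of control with the siRNAs. Of the 4 glutaredoxins 0 were called (medians -0.52 and 0.32). GLRX5, which serves mitochondrial iron-sulfur cluster assembly, came nearest with 0.67 and 0.56. GLRX, the cytosolic glutaredoxin, had -2.25 and 0.51.

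Other peroxide and superoxide enzymes, 10 tested, had 0 called in either direction (medians -0.14 and 0.15). Catalase (CAT) had ratios of 0.09 and -0.01, and GPX1, the main cytosolic glutathione peroxidase, had 0.19 and 0.09. GPX4, which reduces lipid peroxides, had 0.74 and 0.24, and GSR, the glutathione reductase, had -0.06 and -0.32. The superoxide dismutase SOD1 had 0.35 and 0.20. SOD2, its mitochondrial counterpart, which makes the hydrogen peroxide that PRDX3 removes, had log2 signals of 9.87 in siControl, 7.49 with siTMPO-AS1 #1 and 10.30 with siTMPO-AS1 #2, low on 1 array only.

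NADPH supply genes, 13 tested, had 2 called lower and 0 higher (medians -0.59 and -0.21). IDH2, the mitochondrial NADP-dependent isocitrate dehydrogenase, had log2 signals of 7.70 in siControl, 6.60 with siTMPO-AS1 #1 and 6.87 with siTMPO-AS1 #2, ratios of -1.09 and -0.83. NADK2, the mitochondrial NAD kinase, had signals of 11.51, 10.92 and 9.12, ratios of -0.59 and -2.39, the first of them at the edge of the call, which was lost when the arrays were centred. NNT, the transhydrogenase of the inner mitochondrial membrane, had 0.22 and 0.02. The 10 general mitochondrial genes had 0 called (medians 0.10 and 0.03), with HSPE1, a matrix chaperonin, at 0.77 and 0.42 and TOMM20, an import receptor, at 0.40 and 1.02. Below control with both siRNAs lay CYCS, cytochrome c, at -0.75 and -0.35, and HSPD1 at -0.54 and -0.12. TFAM, the mitochondrial DNA packaging factor, did too, at -0.17 and -0.40. The CYCS signal in siControl (16.46) exceeds 16, so the scale of its ratios is uncertain.

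Genes of disulfide formation in the secretory pathway, 13 tested, had 1 called lower and 0 higher (medians -0.66 and 0.20). It was TXNDC11, a thioredoxin-domain protein, with ratios of -0.68 and -0.86, while TMX1, a membrane-bound thioredoxin-related protein, had 0.58 and 0.53. The TMX1 signals with siTMPO-AS1 #1 and #2 (16.45 and 16.40) exceed 16, so these ratios carry the same uncertainty of scale as TXN. Selenoprotein synthesis genes, on which the reductases depend for their selenocysteine, had 1 of 8 called lower and 1 higher (medians -0.06 and 0.11). EEFSEC, the elongation factor that delivers selenocysteine, had log2 signals of 6.47 in siControl, 5.42 with siTMPO-AS1 #1 and 5.33 with siTMPO-AS1 #2, ratios of -1.05 and -1.15. TRNAU1AP, which binds the selenocysteine tRNA, had 1.04 and 0.61, a call lost under cyclic loess and centring.

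NRF2 and its targets, 10 tested, had 1 called lower and 1 higher (medians -0.11 and 0.63). GCLM, the modifier subunit of glutathione synthesis, had log2 signals of 10.68 in siControl, 9.35 with siTMPO-AS1 #1 and 9.45 with siTMPO-AS1 #2, ratios of -1.33 and -1.23. HMOX1, haem oxygenase, had 3.97, 5.24 and 4.80, ratios of 1.28 and 0.83. Its control signal lay under the brightness filter, which it passed only through the siRNA arrays, so its call is not read further. By 1.5-fold or more, 7 of the 10 were higher on the siTMPO-AS1 #2 array (16.1% of all genes tested) and 2 on the #1 array (16.6%). Lower were 1 on the #2 array (10.4%) and 3 on the #1 array (18.8%). The 7 were 5 targets, NQO1, HMOX1, GCLC, SLC7A11 and AKR1C1, together with KEAP1, the inhibitor of NRF2, and BACH1, which represses NRF2 targets. HMOX1 is part of these counts and medians although it passed the filter only through the siRNA arrays. No conclusion is drawn from them. KEAP1 (0.59) and AKR1C1 (0.60) lay at the mark, and the 7 genes higher with siTMPO-AS1 #2 became 5 after centring and 4 under cyclic loess. TXNRD1, which NRF2 also regulates, had its larger ratio with siTMPO-AS1 #2 as well, but was chosen with its ratios known. Its signal there also exceeds 16. Of the 7 targets tested, GCLM (-1.23) and FTL (-0.13) lay below control with siTMPO-AS1 #2. Regulation by NRF2 was not tested. High counts on 1 array also occurred in other lists. With siTMPO-AS1 #1, 7 of 13 NADPH supply genes and 7 of 13 of secretory disulfide formation were lower by 1.5-fold (18.8% of all genes tested). The difference between the siRNAs was not tested.

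**Figure D4:**
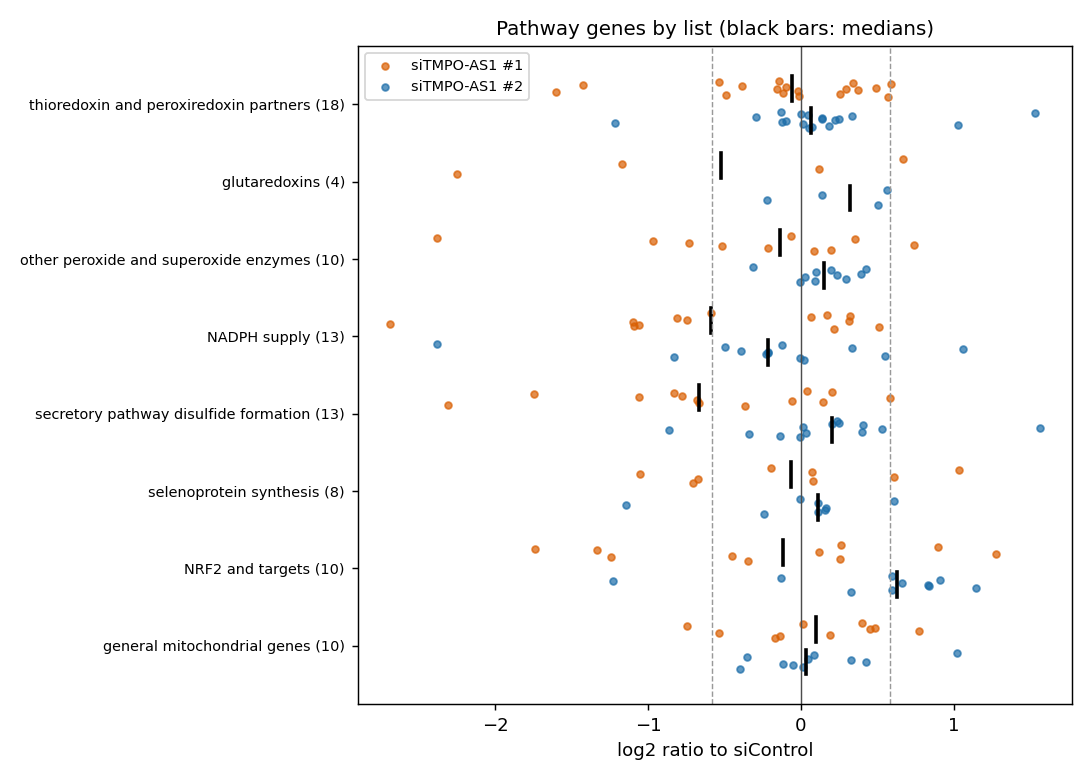
Log2 ratio to siControl (x axis) of the tested genes of 8 pathway lists (y axis, number tested in parentheses), with siTMPO-AS1 #1 in orange and #2 in blue, black bars at the medians and dashed lines at 1.5-fold. Medians lie close to 0 with both siRNAs for general mitochondrial genes (0.10 and 0.03) and thioredoxin and peroxiredoxin partners (-0.06 and 0.06). They lie apart for secretory disulfide formation (-0.66 and 0.20), glutaredoxins (-0.52 and 0.32) and the NRF2 list, HMOX1 included (-0.11 and 0.63).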

How the data were processed

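Expression arrays of MDA-MB-231 cells were analysed, 3 in all, 1 per siRNA. Per the submitters' processing notes, the authors used Affymetrix Expression Console and RMA, and the deposited unit is a log2 signal for every probe set. Their versions were not given in the sources read. Between 1308 and 1351 of 138745 probe sets per array exceeded 16, so a further transformation is possible. Every fold given, those of PRDX3 included, and the 1.5-fold mark take the deposited values as plain log2 signals. Exactly 1 symbol was paired with 36176 probe sets by the platform annotation, several with 1119 and none with 101450. The identifiers of all 9 measured genes matched RefSeq (GRCh38.p14). The values were used without further normalization. limma 3.58.1 (R 4.3.3, lmFit and eBayes, Benjamini-Hochberg) was fitted over all genes tested and checked on simulated data. Arrays carry no read depth, and their number limits the precision. Alternatives were cyclic loess (3 iterations), median centring, other probe sets, fold thresholds and brightness filters.

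The genes, lists, motifs and alternatives were chosen with earlier results of these data known. Named were all members, their probe sets and pseudogenes. From each list, genes past 1.5-fold with both siRNAs were named, and where under 2 were, the nearest up to 2. Also named were TXNIP, SRXN1, TXNRD3, NNT, GPX1, GPX4, CAT, SOD1, SOD2 and GSR. PRDX3's neighbours, GLRX, SESN1, MSRA, MSRB3, CYCS, HSPD1, TFAM, FTL, the genes of the NRF2 count and the motifs were chosen after values were seen.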

Additional observations from a re-analysis of the deposited data

Results flagged for a closer look

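With 1 array per siRNA, 4 of the 86 listed genes tested stood past 1.5-fold from control in opposite directions with the 2 siRNAs. So did 3.3% of all genes tested and none of the 9 peroxiredoxin and thioredoxin genes. No result is read from this count. The difference between the siRNAs was not tested. SLC7A11, the cystine transporter that feeds glutathione synthesis, had log2 ratios of -1.74 (siTMPO-AS1 #1) and 0.91 (#2), which differ by -2.65. TMX3, a membrane-bound thioredoxin-related protein, had -1.06 and 1.56, a difference of -2.62. BACH1, a repressor of NRF2 target genes, had -1.25 and 1.15, a difference of -2.39. MTHFD2, a mitochondrial folate enzyme, had -0.81 and 1.06, a difference of -1.87.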

How the results depend on the processing

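No paired analysis was possible because each siRNA had 1 array. PRDX3 was the 1 member called lower under cyclic loess, centring, both probe set rules and a looser and a stricter (2-fold) threshold. The count of members called higher, 2, became 1 under cyclic loess (PRDX1), 0 at 2-fold and 4 at the looser threshold; centring also gave 2, with TXNRD1 in place of TXN2. The ratios of TXNRD2 became 0.22 and 0.71 over the mean of its probe sets. Including probe sets with several symbols changed no member. Over all genes, 684 lower and 911 higher became 842 and 717 under cyclic loess, 193 and 180 at 2-fold, 1600 and 2362 at the looser threshold, 1040 and 1230 with no filter on dim genes, and 385 and 495 with the 75th percentile filter. The lists' 2 genes called higher became 1 under cyclic loess and 1 after centring, HMOX1 in both cases. limma called 0 genes under every setting tried, with 88 to 787 at an unadjusted p under 0.05. With 1 array per siRNA no array could be left out, and signals near the background probe sets (medians 2.61 to 2.67) limit the dim pseudogenes.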
